A study of Mus musculus with 20 samples.

Results

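The joints given unactivated mesenchymal stromal cells (MSC) were compared with joints that received needle insertion alone. The members were the 5 joints labelled MSC and the 5 joints labelled control, 10 of the 20 joints sequenced, and they were chosen by their group labels and not by any measured value. All joints came from male C57BL/6Nci mice operated at 12 weeks of age, and they were collected later. The surgery destabilized the medial meniscus (DMM), a ligament injury that leads to osteoarthritis of the knee, so the control joints carried the same injury. Control joints had a needle inserted at weeks 3 and 5 after surgery with no cells, and MSC joints received adipose-derived MSC at the same weeks. The cells were cultured from the pooled fat of donor mice of the same strain and were not incubated with an agonist. The other 10 joints received MSC incubated with polyinosinic-polycytidylic acid (TLR3-MSC) or with cGAMP (STING-MSC). No vehicle injection without cells was among the groups analysed here, so the effects of the cells and of the injected fluid cannot be told apart.

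MSC are plastic-adherent cells grown from fat, marrow and other connective tissues, and they are injected into joints for the immune-modulating and trophic factors they release. A whole joint sample holds cartilage, bone, synovium, muscle and bone marrow, and marrow is the site where neutrophils are made. Neutrophils acquire their granules in order as they mature, first the azurophilic granules with myeloperoxidase and elastase, then the specific and gelatinase granules, and last the surface receptors with which they enter the blood. Because the samples are bulk tissue, more cells of a type and more RNA per cell cannot be told apart in any result given here.

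The 10 libraries held from 28979778 to 52529972 reads on 14793 protein-coding genes, with a median of 33230113 reads in the control joints and 42283681 in the MSC joints. The 5 MSC joints varied in makeup. In MSC replicate 5, 296 genes were listed at 0, and 239 of them had reads in the 19 other joints of the series. The summed level of 25 cartilage chondrocyte markers ran from 58471 in MSC replicate 4 to 754871 in MSC replicate 2, and from 243923 to 819632 in the control joints. Joints are separate mice. The limma p-values rest on the spread between mice within groups, estimated together over all 20 joints of the 4 groups.

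Few genes separated the groups after correction for multiple testing. Of 14793 genes tested with limma, 40 (0.27%) were higher and 68 (0.46%) were lower in MSC joints by 2-fold or more with an unadjusted p no higher than 0.05. Without the fold limit, 835 genes (5.64%) were higher and 430 (2.91%) were lower. Only 1 gene (0.00676%) had a false discovery rate (FDR, Benjamini-Hochberg) of at most 0.05. All 5 MSC joints lay above all 5 control joints for 109 genes (0.737%) and below them for 55 genes (0.372%). The counts of genes past the fold limit moved with single joints and with the scaling. Without MSC replicate 2, 376 genes were lower, 67 of them among the 68. Without control replicate 1, 65 were higher and 121 lower, and without control replicate 3 or 4, 45 or 30 were lower. Weights for the quality of each joint, estimated by limma, raised the counts to 85 higher and 295 lower and the genes at that FDR to 2536. Lower genes made up 63.0% of the genes past the fold limit, against 35.6% after quantile normalization, 41.6% with edgeR and 49.4% with DESeq2. Below, "higher" and "lower" are used where the unadjusted p was no higher than 0.05, and the FDR is given for genes described singly.

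The gene that passed the FDR was Dhrs9, a short-chain dehydrogenase that oxidizes retinol and other substrates and is expressed in myeloid cells. It lies at chr2:69210789-69234878 (GRCm39). Its normalised read count was 601, 476, 417, 386 and 463 in control replicates 1 to 5, and 1161, 793, 1410, 1338 and 961 in MSC replicates 1 to 5. The lowest MSC joint was above the highest control joint. The means were 469 ± 82.3 (SD, n = 5) and 1133 ± 257 (SD, n = 5), which gave a log2 fold change of 1.26 (SE 0.17, FDR 0.00864), and the exact two-sided permutation p was 0.00794, the smallest that 5 joints against 5 can give. With only the control and MSC joints in the fit, 0 genes had an FDR of at most 0.05, while 908 had an unadjusted p of at most 0.05; DESeq2 gave 108 genes and edgeR 15 at that FDR. Of 33 measured genes of retinoid metabolism, 3 were higher and 0 lower, and the 3 were Dhrs9, the retinol dehydrogenase Rdh12 and the retinoic acid receptor gene Rara. This share, 9.09%, was near the 5.64% of all genes that were higher, and 3 genes of the list were lower without MSC replicate 2. Rdh12 had a mean of 481 ± 94.9 (SD, n = 5) in control and 930 ± 277 (SD, n = 5) in MSC joints, with 4 of 5 MSC joints above every control joint (log2 fold change 0.92, SE 0.19, FDR 0.104).

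The share of higher genes was largest in lists of neutrophil and myeloid genes. The 6 lists pooled here held neutrophil markers, myeloid receptors, interleukin 1 family genes, C/EBP factors, NF-kB feedback genes and chemokine receptors. Of their 139 measured genes, 58 were higher and 0 lower in MSC joints, beside 5.64% and 2.91% of all genes. This pool was chosen with earlier results of these data known. It left out the macrophage list, with 0 of 18 higher. Also left out were the monocyte (36.4% higher), heat shock (22.6%) and complement (21.4%) lists, whose shares exceeded the 20% of chemokine receptors. The plot of the lists sets each share beside the share of all genes. These lists share members, and a gene that 2 lists hold is counted once in the 139.

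**Figure D1:**
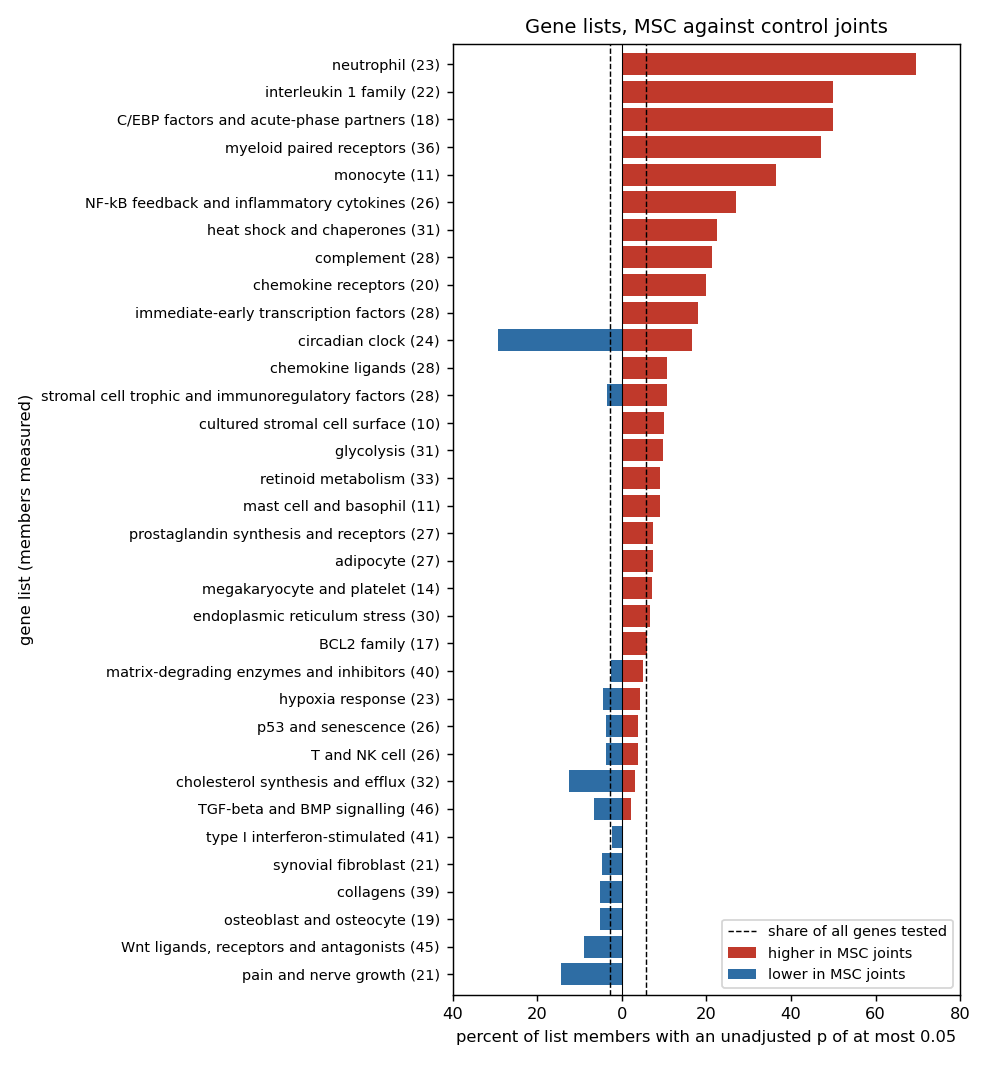
Percent of the measured members of each gene list with an unadjusted p of at most 0.05, higher (red, to the right) or lower (blue, to the left) in the 5 MSC joints than in the 5 control joints; the dashed lines mark the shares of all 14793 genes, 5.64% and 2.91%, and the number measured is in parentheses. The neutrophil list has the largest share higher at 69.6%, the circadian clock list has members in both directions, and lists with no member called are left out.

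Neutrophil genes were higher as a group. Of 23 measured neutrophil markers, 16 (69.6%) were higher and 0 lower, and all 23 had a fold change above 0, with a median log2 fold change of 0.52 against -0.04 over all genes. The markers of late maturation stood first. Cxcr2, the main receptor for chemokines that recruit neutrophils, was at 3683, 2796, 2293, 1982 and 2612 in control replicates 1 to 5 and at 5894, 3642, 5023, 5412 and 3988 in MSC replicates 1 to 5. The 2 groups overlapped by 1 joint, since MSC replicate 2 lay just under control replicate 1 (log2 fold change 0.85, SE 0.17, FDR 0.0647). Its relative Cxcr1 had low counts, 24.3, 9.67, 7.54, 16.4 and 2.04 in control joints and 38.2, 26.1, 59.7, 51.9 and 25.4 in MSC joints, with no overlap (log2 fold change 1.91, SE 0.48, FDR 0.185). Il1r2, the decoy receptor that binds interleukin 1 without signalling, averaged 385 ± 123 (SD, n = 5) in control and 837 ± 254 (SD, n = 5) in MSC joints (log2 fold change 1.11, SE 0.22, FDR 0.0647).

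Genes of the cytosol and of the later granules were higher by smaller folds. S100a8, which encodes a subunit of calprotectin, was among the most abundant of these, at 142787, 116799, 94533, 89443 and 88220 in control replicates 1 to 5 and at 207386, 136926, 162205, 199563 and 129549 in MSC replicates 1 to 5. MSC replicates 1, 3 and 4 were above every control joint, and MSC replicates 2 and 5 fell inside the control range (log2 fold change 0.65, SE 0.20, FDR 0.319). Mmp8, the neutrophil collagenase, had a log2 fold change of 0.61 (SE 0.18, FDR 0.303), and Wfdc21, a secreted protein of the whey acidic protein family, of 0.66 (SE 0.18, FDR 0.252). Retnlg, a resistin-like gene of mature neutrophils, had 0.60 (SE 0.21, FDR 0.354), and Ly6g, the surface antigen by which mouse neutrophils are sorted, had 0.52 (SE 0.20, FDR 0.42).

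The 7 neutrophil markers that did not pass were Ngp and 6 genes of the promyelocyte stage, among them Elane (elastase) and Mpo (myeloperoxidase). Elane was at 16941, 14003, 13086, 7557 and 11330 in control joints and at 20374, 11399, 20236, 20364 and 10420 in MSC joints. MSC replicates 2 and 5 lay within the control range and the other MSC joints above it (log2 fold change 0.38, SE 0.23, FDR 0.662). Mpo had 0.37 (SE 0.23, FDR 0.671). Whether the late and early markers differ in their response was not tested.

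**Figure D2:**
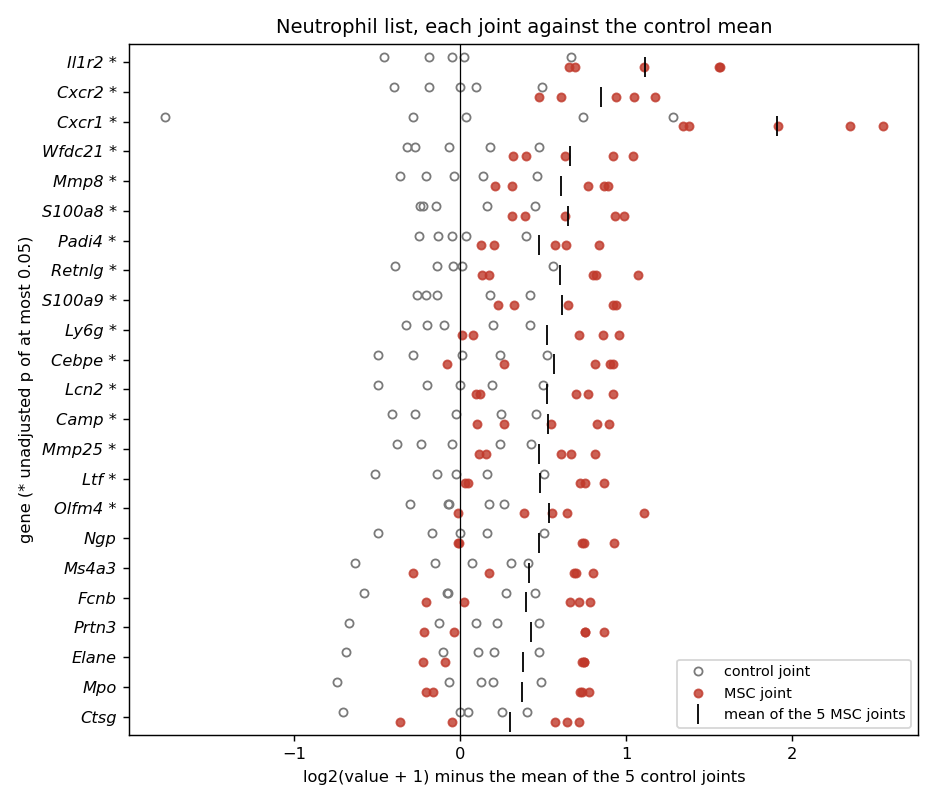
Each of the 23 neutrophil markers (rows, by rising p) in each joint, as log2(value + 1) minus the mean of the 5 control joints; open circles are control joints, filled circles MSC joints and black bars the MSC means. The receptor genes Il1r2, Cxcr2 and Cxcr1 lie furthest to the right, and for most other markers 3 MSC joints sit right of the control joints and 2 among them.

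The same joints differed in other marrow markers. The summed neutrophil list was 1038375, 659572, 923455, 1083356 and 632066 in MSC replicates 1 to 5, and from 441494 to 796177 in control joints. MSC replicates 2 and 5 were the lowest of the MSC joints in this sum, though within the control range. In the erythroid sum they were the lowest of all 10 joints, at 1051144 and 974447, where the control joints ran from 1234284 to 2108650. Of the 21 erythroid markers 0 were higher or lower (median log2 fold change -0.04), and the same held for 18 B lineage markers (median 0.06) and 35 mitosis genes (median 0.02). Of the B lineage markers 3 were higher and 1 lower without MSC replicate 2, and 1 was higher with edgeR, after quantile normalization, or without MSC replicate 5 or control replicate 5. The summed skeletal muscle list went the other way in some joints, at 1300875, 2137768, 1559766, 2945787 and 4144219 in MSC replicates 1 to 5 and from 2484085 to 3576936 in control joints, with 0 of 24 members past the test and 4 lower without MSC replicate 5. The part of marrow and muscle content in the neutrophil result was not tested. The neutrophil count was 10 without control replicate 4, the joint with the lowest neutrophil sum, and from 11 to 22 in the other settings run for it.

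**Figure D3:**
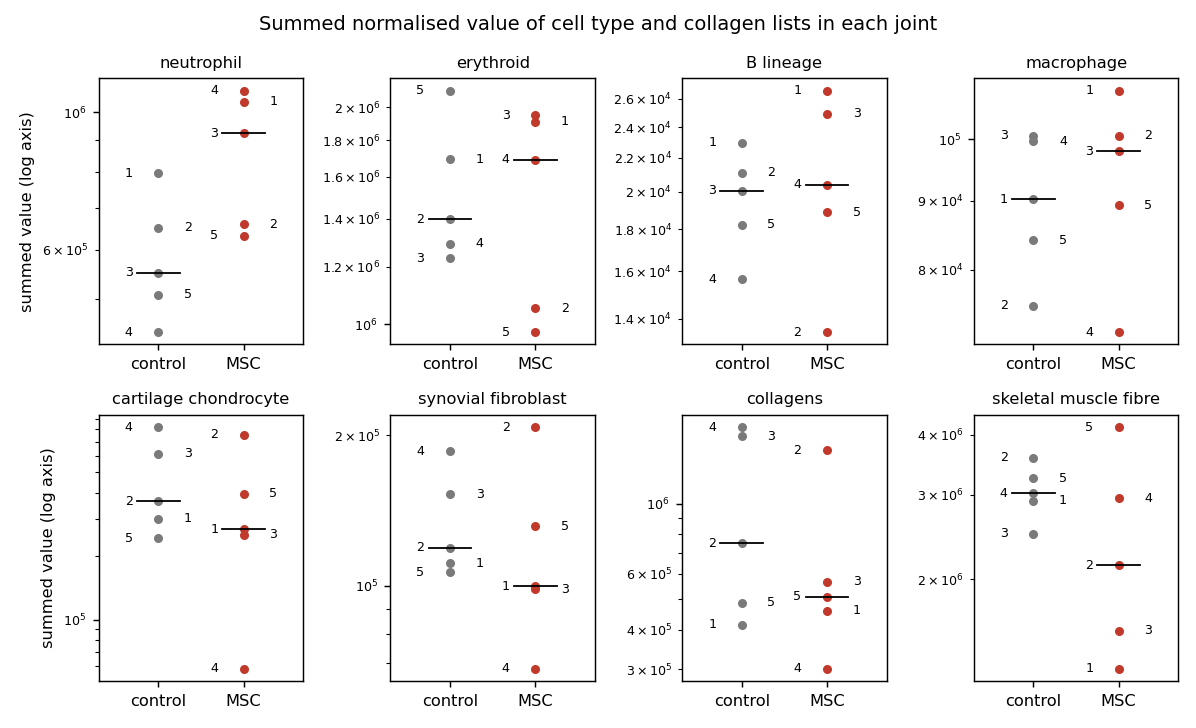
Summed normalised value of 7 cell type lists and the collagen list in each joint (points, log axis; replicate numbers beside them; black lines are medians), control joints in grey and MSC joints in red. MSC replicates 1, 3 and 4 have the 3 highest neutrophil sums, while MSC replicate 2 has the highest synovial fibroblast sum and MSC replicate 4 the lowest of the 10 joints.

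Receptors by which myeloid cells sense microbes, dead cells and immune complexes were higher in MSC joints. Of 36 measured genes in the list of paired and C-type lectin receptors and their adaptors, 17 (47.2%) were higher and 0 lower, with a median log2 fold change of 0.36. The inducible lectin receptor gene Clec4e (Mincle), which recognizes mycobacterial glycolipid and a protein set free by dead cells, was at 692, 445, 454, 485 and 528 in control joints and at 1107, 780, 1836, 1608 and 764 in MSC joints. The groups did not overlap, and MSC replicates 3 and 4 were the highest (log2 fold change 1.15, SE 0.22, FDR 0.0647). Its partner Clec4d had 0.99 (SE 0.18, FDR 0.0647), and Trem1, an amplifier of inflammatory signals on neutrophils and monocytes, had 0.99 (SE 0.22, FDR 0.118). Cd300ld, an activating receptor of neutrophils, averaged 675 ± 77.2 (SD, n = 5) in control and 1086 ± 168 (SD, n = 5) in MSC joints without overlap (log2 fold change 0.68, SE 0.12, FDR 0.0647). The adaptor Tyrobp, through which many of these receptors signal, had 0.49 (SE 0.15, FDR 0.303). The count of 17 was 11 without MSC replicate 1, without MSC replicate 4 or without control replicate 4.

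The interleukin 1 family was higher in ligands, receptors and adaptors alike. Of 22 measured genes, 11 (50%) were higher and 0 lower, and the 11 were the ligands Il1b and Il36g, the antagonist Il1rn, the receptor genes Il1r2, Il1rap, Il18r1 and Il18rap, and the signalling genes Myd88, Irak2, Irak4 and Nlrp3. Without MSC replicate 1 the count was 6. Il1b, a cytokine that drives cartilage breakdown and fever, was at 640, 471, 456, 487 and 693 in control replicates 1 to 5 and at 932, 775, 1639, 1349 and 726 in MSC replicates 1 to 5. The lowest MSC joint was just above the highest control joint (log2 fold change 0.93, SE 0.20, FDR 0.104). Il36g, an epithelial and myeloid cytokine of the same family, averaged 527 ± 122 (SD, n = 5) and 920 ± 131 (SD, n = 5) and also did not overlap (log2 fold change 0.82, SE 0.15, FDR 0.0647). Il18r1, a chain of the interleukin 18 receptor, had 0.67 (SE 0.19, FDR 0.3). Myd88, the adaptor shared by these receptors and most Toll-like receptors, rose by less, from 1371 ± 165 (SD, n = 5) to 1682 ± 101 (SD, n = 5), with all MSC joints above all control joints (log2 fold change 0.30, SE 0.10, FDR 0.359).

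C/EBP transcription factors, which drive granulocyte maturation and the acute-phase response, were higher with their partners. Of 18 measured genes in that list, 9 (50%) were higher and 0 lower. Cebpd was at 2342, 2213, 1982, 1921 and 1508 in control joints and at 3132, 2935, 3255, 3306 and 2948 in MSC joints (log2 fold change 0.66, SE 0.13, FDR 0.0647). The MSC joints were close to each other and all above the control joints. Cebpb was at 1552, 1720, 1575, 1715 and 1595 in control joints and at 2054, 2052, 3133, 3507 and 2114 in MSC joints (log2 fold change 0.62, SE 0.13, FDR 0.104). Here the groups did not overlap either, and MSC replicates 3 and 4 were well above the rest. Hp, which encodes the acute-phase protein haptoglobin, had 0.59 (SE 0.14, FDR 0.183), Il6ra, the interleukin 6 receptor chain, had 0.51 (SE 0.12, FDR 0.134), and Cebpg had 0.33 (SE 0.09, FDR 0.245). Cebpe, the factor needed for the specific granules, belongs to the neutrophil list too and had 0.56 (SE 0.21, FDR 0.429).

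Of 20 measured chemokine receptor genes, 4 (20%) were higher and 0 lower, and all are carried by neutrophils or monocytes: Ccr1, Cxcr1, Cxcr2 and Cxcr4. Ccr1 was at 2094, 1479, 1456, 1382 and 1365 in control joints and at 2854, 2208, 2650, 2581 and 2157 in MSC joints. The groups were apart, although control replicate 1 came close to the lowest MSC joint (log2 fold change 0.69, SE 0.13, FDR 0.0647). Cxcr4, which holds neutrophils in the marrow, had 0.43 (SE 0.18, FDR 0.52). Of 28 chemokine ligand genes 3 (10.7%) were higher, namely Cxcl13, Ccl6 and Cxcl5, and 0 lower, against 5.64% of all genes higher. This count of 3 was 5 without MSC replicate 5 or without control replicate 1. Cxcl13, the chemokine that attracts B cells, was low throughout, with a mean of 22.7 ± 21.2 (SD, n = 5) in control and 58.9 ± 21.1 (SD, n = 5) in MSC joints (log2 fold change 1.64, SE 0.47, FDR 0.302).

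The NF-kB list held 7 higher genes of 26 (26.9%, against 5.64% of all genes) and 0 lower. The higher genes included the cytokine gene Osm and the inhibitor Nfkbia. Osm, a cytokine of the interleukin 6 family made by neutrophils and macrophages, was at 175, 242, 205, 152 and 195 in control joints and at 285, 204, 542, 431 and 319 in MSC joints, so that only MSC replicate 2 lay within the control range (log2 fold change 0.81, SE 0.22, FDR 0.254). Nfkbia, which NF-kB induces and which shuts it off, had 0.36 (SE 0.11, FDR 0.322). The count of 7 was 4 without MSC replicate 3 or without control replicate 5. Of 28 complement genes 6 (21.4%) were higher and 0 lower. Among them were the anaphylatoxin receptors C5ar1 at 0.60 (SE 0.13, FDR 0.118) and C5ar2 at 0.57 (SE 0.15, FDR 0.204). The central component C3 was at 0.44 (SE 0.14, FDR 0.311). The 2 higher genes of 27 in prostaglandin and leukotriene synthesis, Alox5ap at 0.54 (SE 0.14, FDR 0.201) and Alox5 at 0.40 (SE 0.14, FDR 0.367), encode the start of the leukotriene path, and their share of 7.41% was near the 5.64% of all genes. Of this list 6 genes were higher without MSC replicate 5, and 4 were higher and 3 lower without MSC replicate 2.

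Macrophage and interferon genes gave few calls. Of 18 macrophage markers 0 were higher and 0 lower (median log2 fold change -0.01), and the summed list ran from 71923 to 108627 in MSC joints and from 75234 to 100551 in control joints. Of 11 monocyte markers 4 (36.4%) were higher, namely Csf3r, Itgam, Chil3 and Ly6c2, and 9 had a fold change above 0. Neutrophils express these 4 genes as well, and their part in this share was not tested. The count of 4 higher monocyte markers was 7 without MSC replicate 5. Of 41 type I interferon-stimulated genes 0 were higher and 1, Ifit3b, was lower (median 0.01). Of 34 GTPases and antigen presentation genes induced by interferon gamma 0 passed in either direction (median -0.01).

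Genes of stress and survival included some of the smallest p-values. Mcl1, the BCL2 relative on which neutrophil survival depends, was at 14264, 13462, 14294, 14475 and 12334 in control joints and at 16584, 18119, 19638, 18671 and 16813 in MSC joints. The groups lay well apart for a fold this small (log2 fold change 0.38, SE 0.07, FDR 0.0647). Mcl1 was the only 1 of 17 BCL2 family genes that passed, a share of 5.88%, near the 5.64% of all genes higher. Ccdc117 had 0.46 (SE 0.08, FDR 0.0647), and Card10, a scaffold that links receptors to NF-kB, had 0.39 (SE 0.07, FDR 0.0647), both without overlap. Of 31 heat shock and chaperone genes 7 (22.6%) were higher and 0 lower. Hspa1a and Hspa1b, the inducible HSP70 genes, are near-identical copies between which reads can be split. Hspa1a was at 160, 139, 113, 167 and 107 in control joints and at 137, 215, 672, 279 and 389 in MSC joints, with MSC replicate 3 the highest and MSC replicate 1 within the control range (log2 fold change 1.11, SE 0.36, FDR 0.33). Hspa1b had 1.13 (SE 0.44, FDR 0.444). The co-chaperone gene Dnaja1 and the constitutive HSP70 gene Hspa8 did not overlap between groups, with log2 fold changes of 0.49 (SE 0.13, FDR 0.249) and 0.31 (SE 0.10, FDR 0.319). The count of 7 was 4 without MSC replicate 3 or without MSC replicate 4.

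Of 28 immediate-early transcription factor genes 5 (17.9%, against 5.64% of all genes) were higher, namely Klf6, Fosl2, Klf10, Nr4a3 and Atf3, and 0 lower. Fosl2, an AP-1 subunit, averaged 3587 ± 1005 (SD, n = 5) in control and 5515 ± 1446 (SD, n = 5) in MSC joints (log2 fold change 0.63, SE 0.18, FDR 0.303). Nr4a3, an orphan nuclear receptor, averaged 96.0 ± 32.0 (SD, n = 5) and 262 ± 101 (SD, n = 5), and 4 of 5 MSC joints were above every control joint (log2 fold change 1.41, SE 0.49, FDR 0.354). Klf6 had 0.36 (SE 0.10, FDR 0.302), Klf10 0.41 (SE 0.13, FDR 0.324) and Atf3 0.81 (SE 0.32, FDR 0.462).

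An amino acid importer and an arginase stood among the higher genes that passed the fold limit without overlap. Slc7a11, the cystine importer that feeds glutathione synthesis, was at 141, 145, 111, 65.8 and 76.2 in control joints and at 258, 159, 473, 458 and 203 in MSC joints (log2 fold change 1.45, SE 0.28, FDR 0.0647). Arg2, the mitochondrial arginase, was at 86.8, 94.2, 49.0, 52.1 and 51.0 in control joints and at 214, 111, 214, 206 and 103 in MSC joints (log2 fold change 1.32, SE 0.25, FDR 0.0647). In both, MSC replicates 2 and 5 were the lowest of the MSC joints, as they were for the neutrophil sum. Serpinf2, the plasmin inhibitor, went from 11.5 ± 6.57 (SD, n = 5) to 45.1 ± 18.0 (SD, n = 5), with a log2 fold change of 1.96 (SE 0.47, FDR 0.172). Rab4b, Cacna1f and Ddn completed the 9 genes of this kind, all with means under 30 in both groups.

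Circadian clock genes differed between the groups in both directions. The clock is a loop in which BMAL1 (Arntl) and CLOCK switch on their own repressors, the PER and CRY proteins, through E-box sequences, while output factors such as DBP, TEF and HLF act through D-boxes against NFIL3. Of 24 measured clock genes, 4 (16.7%) were higher and 7 (29.2%) were lower in MSC joints, against 5.64% and 2.91% of all genes. The higher genes were the activator Arntl, the repressors Per1 and Cry1, and Nfil3. The lower genes were the D-box activators Dbp, Tef and Hlf, the repressors Per3, Ciart and Bhlhe41, and Nr1d1, which represses Arntl. The count of lower genes was 4 without MSC replicate 4. The time of day at which each joint was collected is not given in the sources used here. Any difference in it between the groups cannot be told apart from the treatment, and its part in the clock values was not tested.

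The promoters of 3 of these genes are shown because they hold the elements through which the loop acts. RefSeq sequences (GRCm38.p6) of the 250 bases before each start site were searched on both strands for the E-box CACGTG, and for the D-box as TTATGTAA or TTACGTAA. The E-box was in 6.02% of all 32851 promoters and the D-box in 0.931%. Of the 11 clock genes that passed, 5 held an E-box before a start site (Ciart, Per1, Cry1, Tef and Bhlhe41) and 1, Per3, held a D-box. Ciart lies on the minus strand at chr3:95882229-95882478 with 3 E-boxes, Per1 on the plus strand at chr11:69098699-69098948 with 1, at the first of its 2 start sites, and Per3 on the minus strand at chr4:151044666-151044915 with 2 D-boxes. Each sequence runs 5′ to 3′ toward the start site, and capitals mark the matches:
Ciart: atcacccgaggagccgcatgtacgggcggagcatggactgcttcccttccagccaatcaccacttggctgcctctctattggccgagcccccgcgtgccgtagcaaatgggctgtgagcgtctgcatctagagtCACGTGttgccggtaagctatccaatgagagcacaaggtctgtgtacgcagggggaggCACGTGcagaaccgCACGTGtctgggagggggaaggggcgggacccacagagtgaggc
Per1: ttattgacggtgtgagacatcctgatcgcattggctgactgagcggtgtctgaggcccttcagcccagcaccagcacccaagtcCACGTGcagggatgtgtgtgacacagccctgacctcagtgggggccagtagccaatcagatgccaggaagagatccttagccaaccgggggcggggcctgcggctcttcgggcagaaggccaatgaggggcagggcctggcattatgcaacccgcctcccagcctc
Per3: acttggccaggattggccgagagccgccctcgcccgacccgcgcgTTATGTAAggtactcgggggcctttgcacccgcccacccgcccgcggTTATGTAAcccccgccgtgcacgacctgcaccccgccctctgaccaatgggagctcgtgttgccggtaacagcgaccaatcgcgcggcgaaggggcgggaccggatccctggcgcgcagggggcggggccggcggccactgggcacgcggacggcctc
A match is a description of the letters and not a measured binding site.

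Per1, a period gene that also responds quickly to glucocorticoids, was at 1288, 823, 934, 1733 and 1293 in control joints and at 1540, 2255, 3739, 2545 and 1892 in MSC joints. Only MSC replicate 1 lay within the control range (log2 fold change 0.96, SE 0.20, FDR 0.0981). Ciart, a repressor of the CLOCK complex with the 3 E-boxes above, moved the opposite way, from 82.6, 87.0, 69.1, 105 and 152 in control joints to 41.6, 41.3, 53.7, 44.5 and 41.7 in MSC joints. Its MSC joints were tightly grouped and all below the control joints (log2 fold change -1.09, SE 0.23, FDR 0.104). Dbp was at 1105, 1748, 1175, 2048 and 2160 in control joints and at 915, 1032, 769, 474 and 914 in MSC joints, again without overlap (log2 fold change -1.0, SE 0.26, FDR 0.201).

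The other clock genes shifted by less. Nfil3, the repressor at D-boxes, averaged 568 ± 117 (SD, n = 5) in control and 872 ± 161 (SD, n = 5) in MSC joints (log2 fold change 0.63, SE 0.17, FDR 0.232). Nr1d1 was at 2834, 3382, 2763, 4314 and 3486 in control joints and at 1822, 2696, 1768, 1698 and 3270 in MSC joints, with only MSC replicate 5 inside the control range (log2 fold change -0.61, SE 0.22, FDR 0.395). Bhlhe41 had -0.62 (SE 0.21, FDR 0.343), Per3 -0.35 (SE 0.13, FDR 0.409), Arntl 0.32 (SE 0.13, FDR 0.489) and Cry1 0.27 (SE 0.11, FDR 0.452). Tef and Hlf were the least firm, at -0.45 (SE 0.21, FDR 0.577) and -0.38 (SE 0.18, FDR 0.577), and both lost the unadjusted p of 0.05 when MSC replicate 1, 3 or 4 was left out.

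**Figure D4:**
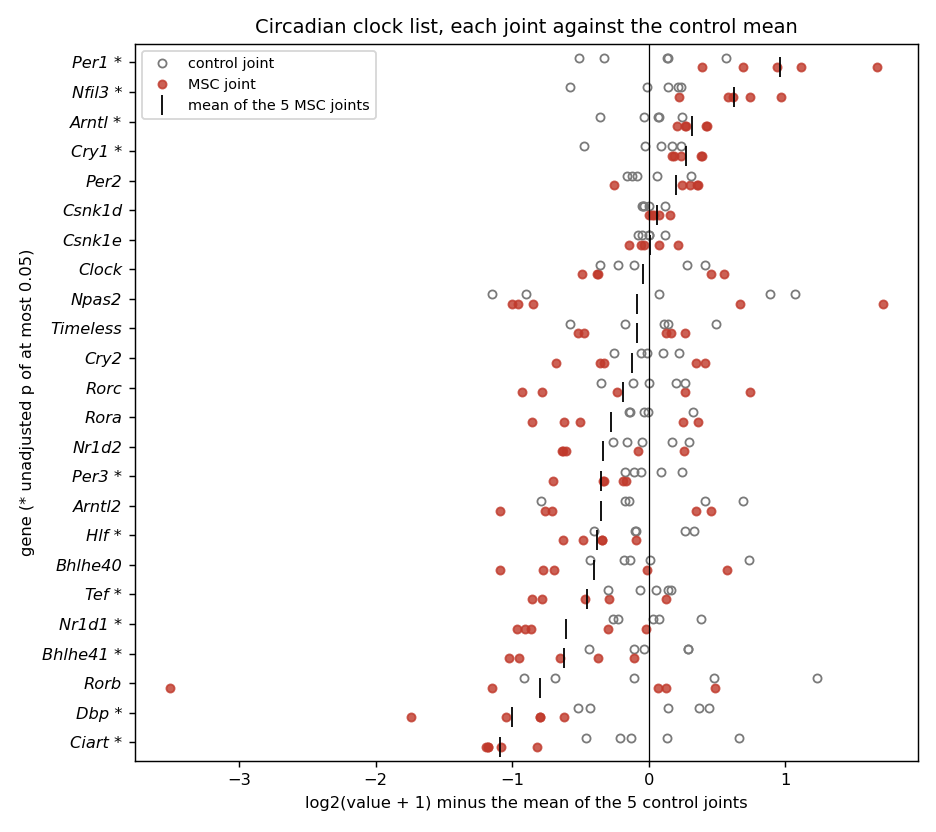
Each of the 24 measured clock genes (rows, by fold change) in each joint, as log2(value + 1) minus the mean of the 5 control joints; open circles are control joints, filled circles MSC joints, black bars the MSC means, and an asterisk marks an unadjusted p of at most 0.05. Per1 and Nfil3 lie to the right, and Dbp and Ciart to the left with all 5 MSC joints below all 5 control joints.

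Joint matrix and synovial genes had lower medians but spread widely within the groups. The median log2 fold change was -0.64 for 39 collagen genes, -0.46 for 40 matrix enzymes and inhibitors, -0.39 for 21 synovial fibroblast markers and -0.34 for 45 Wnt pathway genes, against -0.04 over all genes. Only 2 collagens (5.13%), 1 matrix gene (2.50%), 1 fibroblast marker (4.76%) and 4 Wnt genes (8.89%) were lower, and the 2 higher matrix genes, Mmp8 and Mmp25, are neutrophil proteases. The counts of lower genes moved most with MSC replicate 2, without which they were 22, 21, 11 and 17, while the lower genes among all genes numbered 1343 (9.08%) in place of 430 (2.91%). Without control replicate 4 they were 0, 0, 1 and 1, and the other joints, left out singly, gave from 0 to 10. The collagen sum was 1477274 in MSC replicate 2 and from 300593 to 567452 in the other MSC joints, whereas control replicates 3 and 4 had 1634452 and 1747301 and the other control joints from 414880 to 750489. These sums are made of the same collagen genes, and the amount of connective tissue in each sample was not measured apart from them. Among cartilage chondrocyte markers 0 of 25 were higher or lower (median -0.14), and 6 were lower without MSC replicate 2.

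In the single genes below, taken from these lists and from the osteoblast and TGF-beta lists, MSC replicate 2 was the highest of the MSC joints. Gdf5, a growth factor of the joint lining and cartilage, was at 15.9, 21.7, 35.2, 62.1 and 12.9 in control joints and at 5.36, 59.8, 0.995, 1.65 and 0 in MSC joints. All MSC joints but replicate 2 were below the control joints (log2 fold change -2.51, SE 0.86, FDR 0.354), and the gene did not pass with edgeR or DESeq2. Wnt7b had 54.0, 25.4, 31.4, 52.1 and 15.6 in control joints and 5.36, 19.4, 6.96, 7.42 and 0 in MSC joints, with MSC replicate 2 again the highest (log2 fold change -2.44, SE 0.81, FDR 0.34). Col12a1, a fibril-associated collagen, was at 3166, 8062, 13638, 15966 and 6055 in control joints and at 3148, 12777, 2903, 1902 and 3252 in MSC joints, so that MSC replicate 2 lay among the control joints (log2 fold change -1.11, SE 0.49, FDR 0.543). Postn (periostin) had -1.44 (SE 0.50, FDR 0.359), Wnt16 -1.68 (SE 0.77, FDR 0.565) and the Wnt antagonist Sfrp2 -1.26 (SE 0.57, FDR 0.557). Inhbb had -1.12 (SE 0.48, FDR 0.52), Tgfb2 -0.56 (SE 0.24, FDR 0.52) and the protease inhibitor Timp3 -0.50 (SE 0.23, FDR 0.574). Postn and Wnt7b kept an unadjusted p of at most 0.05 under every alternative fit that gave a value. The exact permutation p was 0.0556 for Postn and 0.0159 for Wnt7b. Col12a1, Wnt16, Sfrp2, Inhbb, Tgfb2 and Timp3 lost it without MSC replicate 4, without control replicate 4 and in other settings.

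Of the 68 genes lower by at least 2-fold, 41 had a mean value under 50 over the 10 joints, and 26 were listed at 0 in MSC replicate 5. Ciart, Rasd2, Mybph, Samd13, Tmem200c and Dpysl5 were the 6 whose groups did not overlap. Rasd2, a small GTPase, was at 781, 1058, 976, 1269 and 1061 in control joints and at 248, 670, 357, 473 and 529 in MSC joints (log2 fold change -1.24, SE 0.32, FDR 0.209). Mybph, a myosin-binding protein of muscle, was at 564, 904, 702, 1410 and 842 in control joints and at 320, 517, 301, 537 and 468 in MSC joints (log2 fold change -1.01, SE 0.37, FDR 0.397). The summed skeletal muscle list also varied between these joints, as given above, and its part in the Mybph values was not tested. Samd13, Tmem200c and Dpysl5 had means under 30 in both groups.

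The factors for which MSC are injected, and the surface markers of the cells, showed little change in the joint. Of 28 trophic and immunoregulatory genes of stromal cells, 3 (10.7%) were higher (Tsc22d3, Entpd1 and Il1rn) and 1 (3.57%), Tgfb2, was lower. The shares of all genes were 5.64% higher and 2.91% lower. The lower genes of the list numbered 5 without MSC replicate 2 and 0 without MSC replicate 4 or control replicate 2 or 4. Il1rn, the interleukin 1 receptor antagonist, was at 1058, 762, 750, 649 and 682 in control joints and at 1267, 833, 1276, 1348 and 751 in MSC joints, with MSC replicates 2 and 5 within the control range (log2 fold change 0.47, SE 0.19, FDR 0.453). Of 10 surface markers of cultured stromal cells 1, Alcam, was higher, a count that was 0 without MSC replicate 1 or 3 or control replicate 2, 4 or 5, and 3 were lower without MSC replicate 2. Their sum ran from 38074 to 61983 in MSC joints and from 43378 to 61061 in control joints. Donor and host were of the same strain, so transcripts of injected cells and of host cells cannot be told apart.

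The remaining lists had few members past the test, beside shares of 5.64% higher and 2.91% lower over all genes. Of 31 glycolysis genes 3 (9.68%) were higher and 0 lower, with Hk3 at 0.46 (SE 0.19, FDR 0.475) and Slc2a3 at 0.40 (SE 0.17, FDR 0.516). The glycolysis count was 0 without MSC replicate 1 or 4 or control replicate 4 and 1 without MSC replicate 3 or control replicate 3. Of 32 cholesterol genes 1 (3.12%) was higher and 4 (12.5%) were lower. The lower cholesterol genes numbered 1 without MSC replicate 4 and 2 without control replicate 1 or 4. Of 46 TGF-beta and BMP genes 1 (2.17%) was higher and 3 (6.52%) were lower. Lower genes of that list numbered 11 without MSC replicate 2 and 1 without MSC replicate 1 or 4 or control replicate 3 or 4. Of 21 genes of pain and nerve growth 3 (14.3%) were lower, 0 without MSC replicate 4 or control replicate 3 or 4 and 1 without MSC replicate 5. No member passed among 16 osteoclast, 17 endothelial, 11 pericyte, 10 plasma cell, 12 muscle regeneration, 21 keratinocyte, 15 Schwann cell, 18 hyaluronan, 36 DNA replication and 50 nuclear respiratory chain genes. Without MSC replicate 2, 4 endothelial, 3 osteoclast, 2 pericyte, 2 plasma cell, 2 muscle regeneration and 2 hyaluronan genes were lower, and 3 endothelial genes were lower without control replicate 1. From 1 to 2 members in either direction passed in each of the lists not named so far (from 0 to 5 with a joint left out).

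The 3 groups that received cells were set side by side against the same 5 control joints, which their fold changes therefore share. The genes set side by side were named for their difference between MSC and control joints. The same MSC joints enter the difference from the activated groups, so this choice can overstate that difference. For some of the higher genes the interval of the difference between MSC and the activated groups included 0. Il36g had log2 fold changes of 0.82 in MSC, 0.84 in TLR3-MSC and 0.86 in STING-MSC joints, and the difference between MSC and the mean of the 2 activated groups was -0.03 (95% confidence interval -0.31 to 0.25). For Ccr1 the values were 0.69, 0.60 and 0.68 (difference 0.05, interval -0.19 to 0.29), for Cxcr2 0.85, 0.60 and 0.74 (difference 0.18, interval -0.12 to 0.48), and for Il6ra 0.51, 0.48 and 0.55 (difference -0.01, interval -0.21 to 0.20). Several receptor genes had larger values in MSC joints, with intervals of the difference that left out 0 but an FDR from 0.688 to 0.935. Clec4e had 1.15, 0.47 and 0.78 (difference 0.53, interval 0.13 to 0.93), and Trem1 had 0.99, 0.38 and 0.43 (difference 0.58, interval 0.19 to 0.98). Clec4d had 0.99, 0.53 and 0.72 (difference 0.36, interval 0.03 to 0.70), and Il18r1 had 0.67, 0.12 and 0.45 (difference 0.38, interval 0.04 to 0.73). Dhrs9 had 1.26, 0.68 and 0.74, a difference of 0.55 (interval 0.24 to 0.85, FDR 0.517).

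Cebpb, Mcl1 and Il1b were higher in MSC joints and had values nearer to the control level in the activated groups. Over all genes, 1 (0.00676%) had an FDR of at most 0.05 for the difference between MSC joints and the mean of both activated groups. This gene was Cebpb, with log2 fold changes of 0.62 in MSC, -0.19 in TLR3-MSC and -0.13 in STING-MSC joints, a difference of 0.78 (SE 0.11, FDR 0.0205). Mcl1 had 0.38, 0.05 and -0.01 (difference 0.36, FDR 0.0986), and Il1b had 0.93, 0.03 and 0.11 (difference 0.86, interval 0.50 to 1.21, FDR 0.225). The clock genes Ciart and Dbp were lower in MSC joints and had values nearer 0 in the activated groups. Ciart (-1.09, -0.39 and -0.12) and Dbp (-1.0, -0.30 and -0.01) had differences of -0.83 (FDR 0.304) and -0.85 (FDR 0.481). Apart from Cebpb, none of the genes in this paragraph passed the FDR for the difference.

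**Figure D5:**
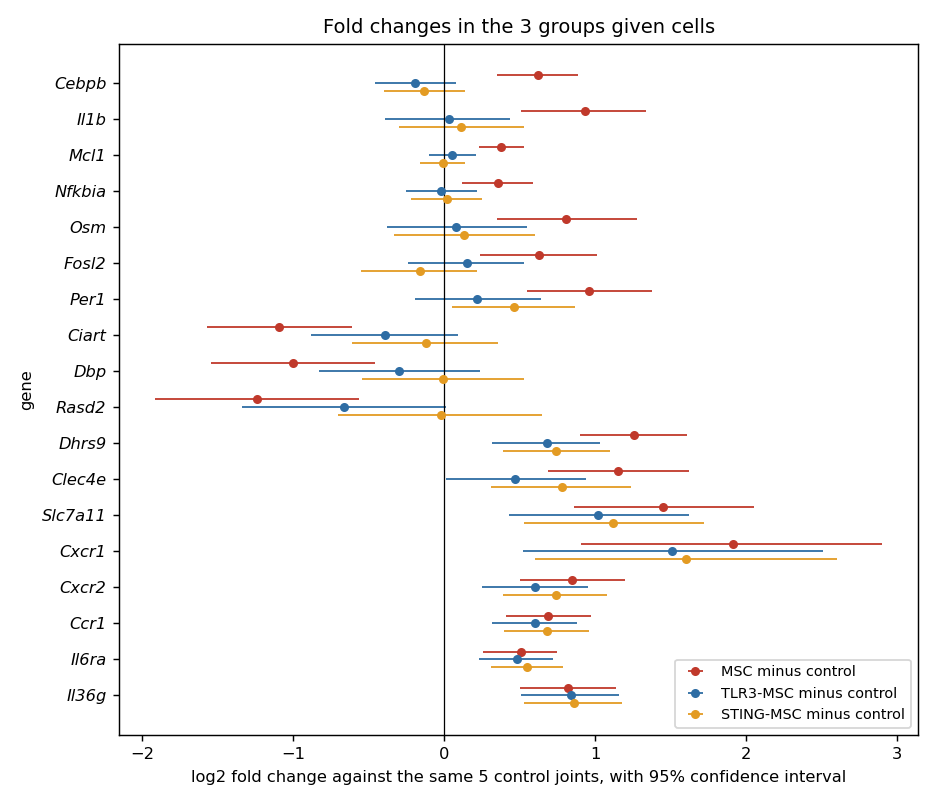
Log2 fold change of 18 genes against the same 5 control joints in MSC (red), TLR3-MSC (blue) and STING-MSC (orange) joints, with 95% confidence intervals from limma. For Cebpb, Il1b and Mcl1 the intervals of the activated groups include 0 and that of MSC does not, while for Il36g and Ccr1 the 3 values lie close together.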

How the data were processed

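Bulk RNA sequencing of whole knee joints was analysed for 5 control and 5 MSC joints, with the 5 TLR3-MSC and 5 STING-MSC joints in the same fit. The authors aligned the reads to GRCm39 with STAR (version 2.7.3a), counted them per gene with HT-seq on the Ensembl annotation and deposited a normalised signal, in which each library's counts were scaled by median-ratio normalisation, for 14793 genes with a mean of at least 9.40. Whether counting used strand is not given in the sources used here, and exons of 49 of the 84 genes named with values overlap those of another gene in GENCODE, so these genes are uncertain. From 99.84% to 99.92% of the deposited values of the 10 joints were whole reads (within 0.1 reads) once divided by the smallest step of their library, so whole reads were recovered, and at from 28979778 to 52529972 reads per joint counting noise limits mainly the genes with low values. The paper's methods place collection 8 weeks after surgery and its results 24 h after injection, so the time from injection to collection is uncertain.

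The main test was limma (version 3.58.1, R 4.3.3) (trend option) on log2(signal + 1), fitted over all 20 samples and 4 groups, in place of the count test that the study names, because the values are normalised. The added 1 shrinks fold changes of low genes, but their values on this scale need not be understated. Gdf5, listed at 0 in MSC replicate 5, had a log2 fold change of -2.51 here and from -3.44 to -1.1 in the alternatives. Genes described singly were tested again by exact two-sided permutation of the 10 joints. Among genes called higher, the exact p was above 0.05 for Ly6g, Cebpe, Il1rn, Cxcr4, Cry1, Atf3, Hk3 and Slc2a3. Among genes called lower, it was above 0.05 for Hlf, Tef, Postn, Col12a1, Timp3, Gdf5, Wnt16, Sfrp2, Tgfb2 and Inhbb. These exact p-values ran from 0.0556 for Postn to 0.151 for Sfrp2. The alternatives were DESeq2 (version 1.42.0) and edgeR's quasi-likelihood test (version 4.0.16), both on recovered reads, other pseudocounts, filters and scalings, array weights, a replicate block and each joint left out. At an FDR of at most 0.05, edgeR called 15 genes and DESeq2 108 on these reads. Tested on simulated reads for the comparison of MSC with control, limma recovered 99% of 200 of 14793 genes changed 4-fold, with 13 false calls. The simulated reads had the same mean profile in every joint, apart from the changed genes, and a fixed spread. They lack the differences in makeup between the real joints, and most folds here are smaller. The simulation therefore shows that the test runs correctly, and not its power or false calls in these joints.

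The comparison and the 52 gene lists were chosen with earlier results of these data known. All members of a list of 13 mitochondrial genes were outside the table, and 1 further list member is not reported here. The genes named were those with an FDR of at most 0.05, the 10 with the smallest p, up to 12 per direction past the threshold without overlap of the groups, and up to 4 per list. The S100a8, Retnlg, Ly6g, Elane, Mpo, Cebpg, Cebpe, Myd88, Tyrobp, Bhlhe41, Nr1d1, Per3, Cry1, Arntl, Hlf, Tef and Atf3 genes were described outside this rule, chosen after their values were seen. Promoters came from RefSeq (GRCm38.p6), and all other positions are GRCm39 as deposited.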

Additional observations from a re-analysis of the deposited data

Results flagged for a closer look

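Among the genes named and the summed lists, a single joint stood apart from the other 4 of its group (Dixon's test) in 6 of 194 groups tested. Chance alone would mark about 5% of the groups tested, so these cases are no more than chance would give. Ccr1 was at 2094 in control replicate 1, against 1365 to 1479 in the other control joints. Il6ra was at 2709 in the same joint, against 1891 to 2018. Dpysl5 was at 42.3 in control replicate 2, against 23.3 to 27.6. Ciart was at 53.7 in MSC replicate 3, against 41.3 to 44.5 in the other MSC joints. Samd13 was listed at 0 in MSC replicate 5, against 5.77 to 12.1. Col12a1 was at 12777 in MSC replicate 2, against 1902 to 3252. The effect of MSC on Cebpb differed from the mean effect of the 2 activated groups, with a difference of 0.78 on the log2 scale (FDR 0.0205).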

How the results depend on the processing

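The counts of genes moved with the joints left out, the tool, the filter and the offset of the log scale. Higher genes past the threshold numbered 40 in the main analysis, 65 after quantile normalization, 85 with array weights, 24 with a pseudocount of 5, and 22 and 10 with a minimum mean of 20 and 100. Lower genes numbered 68, and 36 after quantile normalization, 295 with array weights, 44 with a pseudocount of 5, 44 and 15 with the minimum means, 36 with only the control and MSC joints, 32 with edgeR and 44 with DESeq2. Genes with an FDR of at most 0.05 numbered 1, and 0 with only the control and MSC joints, 15 with edgeR, 108 with DESeq2 and 2536 with array weights. At an unadjusted p of at most 0.05, array weights gave 2331 higher and 2921 lower genes, and 269 were lower with edgeR, 269 with only the control and MSC joints and 263 after quantile normalization. With each joint left out in turn, the counts ran from 31 to 65 higher and from 30 to 376 lower past the threshold, from 1 to 46 at the FDR, and from 565 to 1199 higher and from 259 to 1343 lower at the unadjusted p. The median log2 fold change of all genes was -0.04, and 0.01 after quantile normalization. The cause of these shifts was not tested.

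Apart from number 1, same-numbered joints did not deviate together. The correlations of their deviations ran from -0.658 to 0.464, and only number 1 correlated best with its own. The main fit used no pairing by number, and these correlations cannot show that the numbers carry none. A fit with the replicate block gave 41 higher and 69 lower genes past the threshold, 1 at the FDR, and 788 higher and 380 lower at the unadjusted p. Of the 82 named genes past the unadjusted p of 0.05, 61 kept it under every alternative that gave a value, and 0 changed direction. The exact permutation test was not among these alternatives. Dhrs9 ranged from 1.17 to 1.38 and Ciart from -1.21 to -0.92 on the log2 scale. Ddn, Hlf and Tef lost the threshold most often, each under 10 or more alternatives.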
